A study of Mus musculus with 54 samples.

Results

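Promoter contact hubs of the mouse 230-238 line were the 100 genes whose accessible promoters took part in the most interactions in H3K4me3 PLAC-seq, out of 6663 genes with an accessible promoter in that line. For each gene, every listed interaction was counted in which a 5 kb anchor bin overlapped 1 of the gene's promoter regions, and genes were ranked by that count, with the summed contact count deciding ties. In all, 5989 genes had at least 1 interaction and 674 had none. The counts that chose the hubs are given as a description. Span and the nature of the partner bins were not part of the rule. Contact counts decided ties and also which pairs of bins passed the q-value limit of the list, so they are not independent of the ranking.

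The interaction list came from 2 H3K4me3 PLAC-seq samples of the 230-238 line, an Abelson-transformed progenitor B cell line that the culture protocol also calls a pre-B line, grown in RPMI1640 with fetal calf serum. Both samples were deposited as 1 list, and the 2 ATAC-seq samples of the line as 1 list of 65093 accessible regions, so no value for the line has a replicate error and no test between replicates was possible. The labels describe 2 crosslinking and sonication schemes for PLAC-seq without tying either to a sample, and nothing says that the samples were separate cultures. Intervals in the text are 95% intervals that cover counting error only, and interactions that share an anchor are not independent.

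Further values came from fetal liver progenitors labelled ProB (C57BL6/J background, expanded on OP9 stroma in the presence of interleukin-7 and the ligands of KIT and FLT3), of Ebf1-KO, E2A-KO and Wt genotype, and from Ebf1-KO cells carrying the pMiG-Ebf1ER vector at 0, 6, 24 and 72 h of 4OHT. Each group stood in 1 column, made of 1 sample (BRG1, EP300, PolII, H3K4me2, H3K27Ac), of 2 samples (H3K4me3, H3K27me3, each 4OHT time) or of 3 samples (E2A-KO ATAC-seq), so these values have no replicate error either. The Wt ATAC-seq column is named as a pool of 6, while 3 Wt samples are labelled. The hubs, their interactions and their accessible promoters come from 1 cell line only, the line used for PLAC-seq. Marks, factor signals and knockout values at hub promoters and partners come from these progenitors and vector-carrying cells.

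PLAC-seq joins DNA ends that lie close together in the nucleus and then pulls down the pieces that carry a chosen chromatin mark. H3K4me3 marks the promoters of active genes, so the method reads mostly the contacts in which at least 1 end is an active promoter, among them contacts with enhancers. In early B cells the factor Ebf1 binds enhancers and promoters of B-lineage genes together with E2A, Foxo1 and Pax5, and opens chromatin at many of them. Abelson-transformed lines grow as pro-B or early pre-B cells driven by the viral Abl kinase.

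The list held 69898 interactions between 5 kb bins, with spans of 10 to 2985 kb and a median of 130 kb. Their contact counts, the number of read pairs joining the 2 bins, summed to 1544429 and had a median of 16 and a range of 1 to 279. An accessible promoter lay on at least 1 end of 36879 interactions, and the other 33019 touched none. Of 14 pro-B marker genes, 12 had an accessible promoter in the line, against 2 of 9 T cell, 2 of 8 myeloid, 2 of 7 erythroid, 1 of 6 NK and 0 of 7 stromal markers.

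Promoter sequence was read for 72 hubs with a RefSeq window (GRCm38.p6, 250 bases before to 50 after the start) that overlapped an accessible promoter region of the gene. Bcl6 and Cited2 are shown because they hold the second and the third place in the ranking and send every contact to one side, and Lsg1 and Ppil1 because each carries the letters of an Ets site in 2 places. Capitals mark CCGGAAGT, the Ets letters, and GGGCGG, the letters bound by Sp and Klf factors, on either strand.
Bcl6 (chr16:23988803-23989102, minus strand): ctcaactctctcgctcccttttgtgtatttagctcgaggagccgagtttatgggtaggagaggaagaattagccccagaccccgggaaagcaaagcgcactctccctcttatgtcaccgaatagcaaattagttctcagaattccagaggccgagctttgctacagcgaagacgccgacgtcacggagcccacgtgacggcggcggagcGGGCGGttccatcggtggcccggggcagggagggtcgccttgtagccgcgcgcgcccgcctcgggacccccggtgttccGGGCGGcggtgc
Cited2 (chr10:17722978-17723277, plus strand): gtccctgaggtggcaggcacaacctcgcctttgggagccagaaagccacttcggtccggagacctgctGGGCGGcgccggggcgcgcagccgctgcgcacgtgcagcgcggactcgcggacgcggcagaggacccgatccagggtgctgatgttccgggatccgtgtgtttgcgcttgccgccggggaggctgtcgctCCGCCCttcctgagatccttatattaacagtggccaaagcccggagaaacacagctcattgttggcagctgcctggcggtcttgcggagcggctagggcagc
Lsg1 (chr16:30587540-30587839, minus strand): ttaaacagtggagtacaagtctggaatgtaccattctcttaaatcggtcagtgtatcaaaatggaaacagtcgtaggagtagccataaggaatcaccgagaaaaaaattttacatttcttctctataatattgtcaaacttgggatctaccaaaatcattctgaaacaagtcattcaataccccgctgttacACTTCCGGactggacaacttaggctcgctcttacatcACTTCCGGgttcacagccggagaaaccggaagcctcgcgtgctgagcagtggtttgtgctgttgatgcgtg
Ppil1 (chr17:29263922-29264221, minus strand): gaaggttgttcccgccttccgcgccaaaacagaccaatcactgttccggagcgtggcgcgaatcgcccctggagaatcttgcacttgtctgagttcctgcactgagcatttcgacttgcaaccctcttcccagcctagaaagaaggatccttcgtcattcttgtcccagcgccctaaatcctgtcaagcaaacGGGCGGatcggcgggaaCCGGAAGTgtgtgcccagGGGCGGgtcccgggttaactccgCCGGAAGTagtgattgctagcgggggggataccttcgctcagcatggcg

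Hub promoters were rich in CpG, as were the promoters of other contacted genes. The median window had 25 CpG dinucleotides and 63.0% G and C in the 72 hubs, against 23 and 62.3% in 4126 other contacted genes, and 7 and 52.7% in all 32851 windows of the table. The 4 windows shown had 31 CpG in Bcl6, 29 in Cited2, 23 in Ppil1 and 12 in Lsg1. Of the motifs searched on both strands, GGGCGG was in 70.8% of hub windows, 68.8% of windows of other contacted genes and 35.7% of all windows. CCAAT, read by NF-Y, was in 48.6%, 40.2% and 37.4% of these sets, and TATAAA in 8.33%, 4.58% and 13.6%. CCGGAAGT was in 12.5% of hub windows (9 of 72), 10.2% of those of other contacted genes and 3.89% of all windows. The Ebf1 palindrome was in 0 of the 72 hub windows, 1.16% of those of other contacted genes and 0.904% of all windows. TGACGTCA, read by Creb, was in 5.56% of hub windows, 3.51% of those of other contacted genes and 1.79% of all, and TTTCCCGC, read by E2F, in 4.17%, 2.59% and 1.07%. Motifs were searched independently of each other, so matches can overlap. A match is a run of letters and not a measured binding site.

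The hubs had between 22 and 73 interactions each, with a median of 25, against a median of 6 and a range of 1 to 22 in the 5889 other contacted genes. Together they held 2559 interactions, 6.94% of those with a promoter. The ranking was steep at its head and flat at its foot. Myc, the transcription factor that drives cell growth and division, led with 73 interactions, and Bcl6, a transcriptional repressor, followed with 67. Cited2, a partner of the CBP and EP300 coactivators, had 58, and Klf6, a zinc finger factor, had 57. Ptger4, a receptor for prostaglandin E2, had 47. Runx1 and Foxo1, both transcription factors that early B cells need, had 42 and 41. These 7 genes stood apart from the rest, in which no gene had more than 34.

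**Figure D1:**
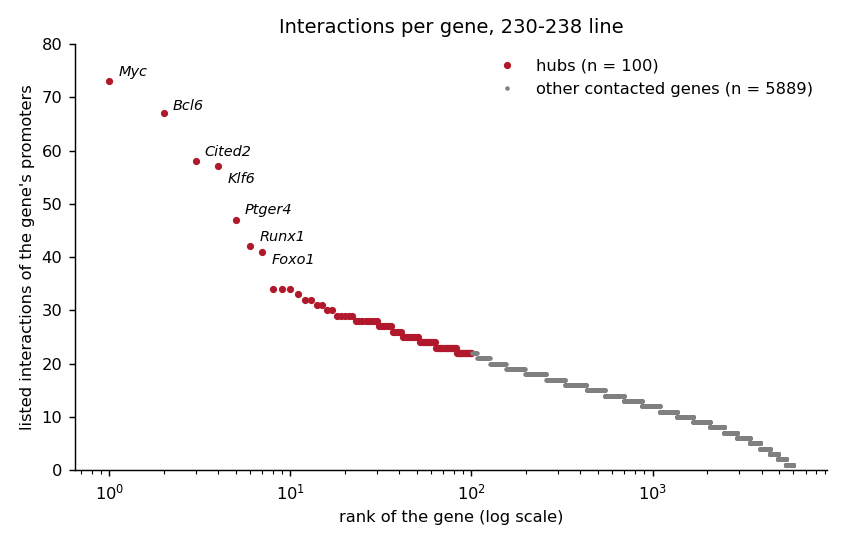
Number of listed interactions (vertical axis) of each contacted gene against its rank on a log scale (horizontal axis); red points are the 100 hubs and grey points the 5889 other contacted genes. The 7 named genes lie between 41 and 73 interactions, and the step from hubs to other genes at 22 interactions has no gap.

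At the foot, the order was set by ties. Rpl13, a protein of the large ribosomal subunit, Tmem242, a small membrane protein, and Sec11c, a subunit of the signal peptidase, held ranks 98 to 100 with 22 interactions each and summed contact counts of 408, 390 and 356. Creb1, a cAMP-responsive transcription factor, Srsf2, a splicing factor, and Brix1, a ribosome assembly factor, also had 22 interactions each and took the next places with summed counts of 352, 338 and 301. Their median spans were 447.5 kb for Creb1, 210.0 kb for Srsf2 and 505 kb for Brix1, so genes just outside reached as far as genes just inside (202.5 kb for Rpl13, 260.0 kb for Tmem242 and 257.5 kb for Sec11c).

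The deposited list also groups neighbouring bin pairs into 64588 merged clusters. Counted that way, the hubs had a median of 22 clusters and a range of 12 to 54, against a median of 6 for the other contacted genes. Klf6 then led with 54, Myc had 49, Cited2 47 and Bcl6 39.

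Promoter regions of the hubs were spread over the autosomes. On chromosome 16, 8 of 196 genes were hubs, or 4.08%, against a background in which 1.50% of all genes were, and on the X chromosome 0 of 190 were. More than 1 accessible promoter region was annotated for 30% of the hubs (21.9% to 39.6%), against 11.8% of other contacted genes (11.0% to 12.7%), and a gene with more regions can collect interactions from more bins. When genes were ranked by their best single promoter region, 94 of the 100 hubs remained. The 100 hubs used 117 anchor bins. A shared bin joined 14 hubs into 7 pairs with the same interactions, among them Ergic2 with 4732416N19Rik, Dolk with Nup188 and Kcna3 with AI504432, so the hubs were 93 separate sets of interactions. Joined over 1000 kb they made 81 loci. The bins of 2 hubs were connected by 8 interactions. With hubs at 1.50% of all genes and no share for other genes beside it, nothing is read from this count.

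Among fixed gene lists, transcription factors of the B lineage and genes of cell cycle, survival and growth held the most hubs, though the lists were drawn up with earlier results known. Of 20 B-lineage transcription factors with an accessible promoter, 6 were hubs (30.0%, background 1.50%), and the list's median was 14.5 interactions against 6 over all genes. They were Runx1, Foxo1, Mef2c with 29, Ebf1 with 28, Bcl11a with 28 and Lef1, the transcription factor at the end of the Wnt pathway, with 27. Next in the list came Ikzf1, a zinc finger factor of lymphocytes, with 17, and Pou2f2, an octamer-binding factor, with 16. Of 15 genes of cell cycle, survival and growth, 5 were hubs (33.3%), with a median of 10.0. Among them were Myc, Bcl6, the proapoptotic gene Bcl2l11 with 24 and the cell cycle kinase Cdk6 with 22, and the next were Bcl2, which blocks apoptosis, with 20, and E2f2 with 19.

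Immediate early and signal feedback genes gave 2 hubs among 20: Jun, a subunit of AP-1, with 34, and Zfp36l1, which speeds the decay of mRNAs, with 23. Spry2 with 20 and Socs2 with 18, both inhibitors of receptor signalling, followed. Ribosomal protein genes gave 3 hubs among 49, among them Rps27a with 29 and Rpl13 with 22, and a list median of 12.0. No hub was found among 15 genes of the pre-B-cell receptor and its signalling, 8 of V(D)J recombination, 9 cytokine receptors and surface proteins and 19 chromatin regulators, whose medians were 4.0, 4.5, 6.0 and 9.0. At a background of 1.50%, lists of this size would hold less than 1 hub each, so nothing is read from their lack of hubs. Rag1 and Rag2, which cut DNA in V(D)J recombination, had 2 interactions each. Pax5, the factor that commits cells to the B lineage, had 1, and Vpreb1, a chain of the surrogate light chain, had 0.

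Hub interactions reached farther than those of other genes. Their median span was 280 kb (270 to 290 kb), against 130 kb (130 to 135 kb) for interactions of other contacted genes only. Spans over 500 kb made up 23.5% of hub interactions (21.9% to 25.2%) and 7.68% of the others (7.40% to 7.96%), and spans over 1000 kb made up 5.55% and 1.58%. Per gene, the median of the median spans was 258.8 kb (210 to 330 kb) in hubs and 120 kb (117.5 to 125 kb) in other contacted genes, and the longest interaction of a gene spanned 745 kb and 305 kb in the median. Every interaction of a promoter bin takes a partner bin of its own, so number and span are not independent measures. The 445 genes with 15 to 22 interactions outside the hubs lay between, with a median of 187.5 kb (175 to 200 kb).

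The hubs themselves differed in reach by almost an order of magnitude. Myc had the largest median span, 805 kb, followed by Bcl6 with 760 kb, the long noncoding RNA gene Pvt1 with 695 kb, Cited2 with 690 kb, and the pair Ergic2 and 4732416N19Rik with 675 kb. Gse1, a protein of a histone demethylase complex, and Mex3a, an RNA-binding protein, had the smallest, 90 kb each. Cd37, a tetraspanin of B cells, followed with 100 kb, Sertad2, a coregulator of transcription, with 110 kb, and Dolk, the dolichol kinase, with 117.5 kb, in a bin shared with the nucleoporin gene Nup188. The longest hub interaction joined Extl2, a glycosyltransferase, to a bin 2375 kb away, with 7 contacts (2.81 to 14.4).

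Hubs with fewer promoters nearby had longer spans. Across hubs, the median span and the number of other genes' promoters within 500 kb had a Spearman rho of -0.65 (n = 100), against -0.25 across the 5889 other contacted genes; both are descriptions, since neighbouring genes share bins and the number of promoters also sets how many partners can be promoters. Split at a median span of 300 kb, a limit chosen after the values were seen, 42 long-range hubs had a median of 1 other promoter within 500 kb (1 to 3), and 58 short-range hubs had 6 (5 to 10). The long-range hubs had 50 accessible regions within 500 kb in the median, against 85 in the short-range hubs. Over all hubs the median number of such promoters was 4 (3 to 5), and over other contacted genes 6.

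**Figure D2:**
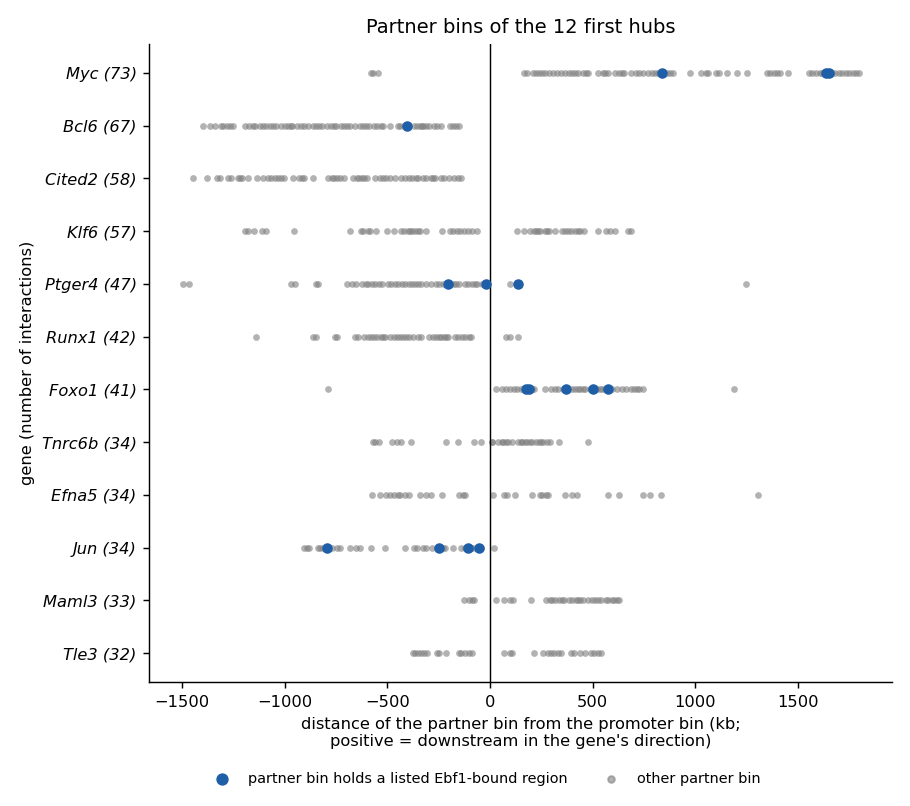
Distance in kb from the promoter bin to each partner bin (horizontal axis; positive values lie downstream in the direction of transcription) for the 12 hubs of highest rank (vertical axis, with the number of interactions); blue points are partner bins with a listed Ebf1-bound region and grey points all others. Bcl6 and Cited2 reach upstream only, Myc and Foxo1 almost only downstream, and Klf6 in both directions.

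Many hubs sent their contacts to one side. Bcl6 had 67 interactions upstream and 0 downstream, Cited2 58 and 0, and Bcl11a, a zinc finger repressor, 0 and 28. Foxo1 had 1 upstream and 40 downstream, Ebf1 1 and 27, and Myc 3 and 70. Runx1 had 39 upstream and 3 downstream, Ptger4 44 and 3, and Jun 33 and 1. Klf6, with 32 upstream and 25 downstream, and Tle3, a Groucho corepressor, with 14 and 18, reached both ways. Of 97 hubs with a known strand, 40 had at least 80% of their interactions on 1 side, 41.2% (32.0% to 51.2%), against 33.3% (29.04% to 37.9%) of the genes with 15 to 22 interactions, and these intervals overlap. Over all hub interactions neither direction prevailed, with 48.9% upstream (47.0% to 50.8%), against 49.0% in other contacted genes.

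Contact counts fell with distance, so hubs and other genes were compared within classes of span. Without classes, the median interaction had 16 contacts in hubs and 18 (17 to 18) in other contacted genes. Up to 50 kb the median was 58.5 contacts (53 to 70) in hubs, against 43 (42 to 43) in other contacted genes. From 50 to 100 kb the medians were 32 and 24, from 100 to 200 kb 21 and 17, and from 200 to 400 kb 15 and 12. From 400 to 800 kb they were 11 and 10, and beyond 800 kb 9 (8 to 10) and 8. In 5 of the 6 classes the hubs' interval lay above that of other contacted genes, while beyond 800 kb the intervals touched. A pair of bins is listed only if its contact count is high for its span, so this count and the number of interactions are not independent measures. Coverage of the bins was not used here.

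**Figure D3:**
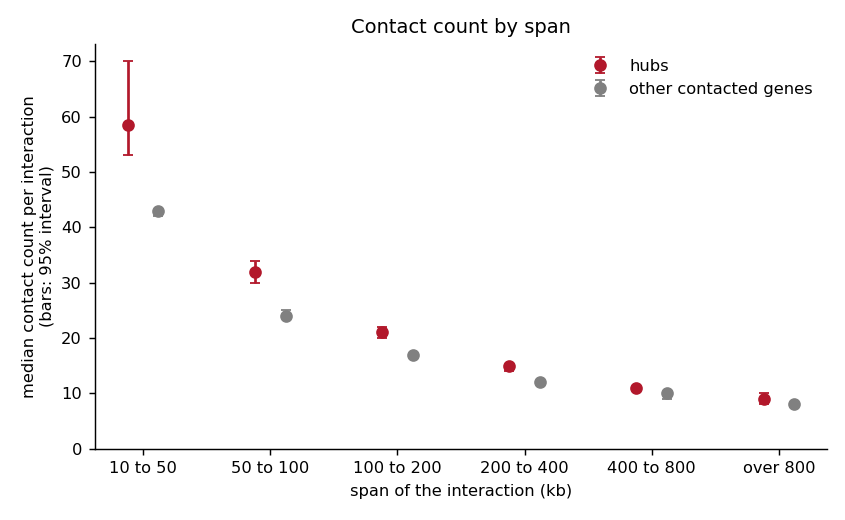
Median contact count per interaction (vertical axis) in 6 classes of span in kb (horizontal axis) for interactions of hubs (red) and of other contacted genes (grey); bars are 95% intervals of the median. Hubs lie above other genes at 58.5 against 43 up to 50 kb, and the difference narrows to 9 against 8 beyond 800 kb.

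The strongest single interaction of a hub had a median of 75 contacts (57 to 82), against 44 in other contacted genes and 68 in those with 15 to 22 interactions, where fewer interactions also give fewer chances of a high count. Ranked by the median contact count, Prkce, a protein kinase C, led the hubs with 30.5. Cd37 was also near the top with 26. Gadd45g, a stress response gene, and Ssh2, a phosphatase that acts on the actin cytoskeleton, had 24.5 each. Across hubs, median span and median contact count had a Spearman rho of -0.73 (n = 100), so hubs of longer reach had lower counts.

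At Myc the contacts gathered in 2 downstream zones. The strongest joined the promoter bin to chr15:62805001-62810000 (mm10), 820 kb downstream, with 65 contacts (50.2 to 82.9). Next came chr15:63650001-63655000, 1665 kb away with 52 contacts (38.8 to 68.2), and chr15:63600001-63605000, 1615 kb away with 51 (38.0 to 67.1). Interactions of that length had a median of 9 contacts in hubs, so all 3 were several times stronger than usual for their distance. All 3 bins held accessible intergenic regions without a promoter. A cluster of enhancers far downstream of Myc is known to act in blood progenitors and leukaemia of the mouse. Pvt1, whose promoter lies between Myc and these zones, had 25 interactions, 24 of them downstream.

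Other leading hubs had their strongest contacts in different settings. Bcl6 met the promoter of the noncoding RNA gene A230028O05Rik at chr16:25055001-25060000, 1070 kb upstream, with 39 contacts (27.7 to 53.3), and an intergenic accessible region next to Lpp at 355 kb with 38 (26.9 to 52.2). Runx1 met an intergenic accessible bin at chr16:93290001-93295000, 595 kb upstream, with 45 contacts (32.8 to 60.2). Ebf1 had the highest count among these, 150 contacts (127 to 176) with the bin 10 kb downstream, and 54 (40.6 to 70.5) with chr11:45010001-45015000 at 395 kb.

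Mef2c, a MADS-box factor, had its 3 strongest contacts downstream, led by 62 contacts (47.5 to 79.5) with an intronic accessible bin at 45 kb, yet 24 of its 29 interactions lay upstream. Tnrc6b, which links Argonaute to mRNA silencing, met a bin at 10 kb with 105 contacts (85.9 to 127.1), and Efna5, a ligand of Eph receptors, a bin in its own intron at 15 kb with 90 (72.4 to 110.6). Maml3, a coactivator of Notch, Nrip1, a corepressor of nuclear receptors, and Man1a, a Golgi mannosidase, had 49, 32 and 75 contacts with their strongest partners. Lsg1, a GTPase of ribosome assembly, had 82 with a bin in its own intron, and Aftph, a protein of clathrin traffic, had 42. Rps27a, which encodes ubiquitin fused to a ribosomal protein, had 101 with a bin at 20 kb, and Nudt1, which removes oxidised nucleotides, had 70 with the promoter of Eif3b. Except for Myc, Bcl6 and Runx1, the strongest partner of each of the first 20 hubs lay within 200 kb.

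Partner bins of hubs held promoters less often than those of other genes. A promoter lay on 9.82% of partner bins (8.73% to 11.0%) in hub pairs of bins, against 23.01% (22.6% to 23.4%) in those of other contacted genes. Accessible regions without a promoter lay on 36.7% (34.8% to 38.6%) against 39.9% (39.4% to 40.4%). Bins with no accessible region made up 53.5% (51.6% to 55.4%) against 37.1% (36.6% to 37.6%). Hub interactions were also longer, and these shares are not given here by class of span or for genes with 15 to 22 interactions. Just outside the hubs, Creb1, Srsf2 and Brix1 had a promoter on 4, 4 and 3 of 22 partner bins. Just inside, Rpl13, Tmem242 and Sec11c had one on 5, 3 and 1 of 22. The shares are therefore not read as particular to hubs. Cited2 had 48 of 58 partner bins without an accessible region, Klf6 45 of 57, Ptger4 39 of 47 and Myc 52 of 73. Runx1, with 19 of 42, and Tle3, with 14 of 32, had fewer.

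The partner classes differed within the hubs too. In the 42 long-range hubs 64.5% of partner bins had no accessible region (61.9% to 67.0%) and 4.49% a promoter, against 42.5% (39.9% to 45.1%) and 15.2% in the 58 short-range hubs. Median contact counts per gene were 13 (12 to 14) in the long-range and 19 (18 to 20) in the short-range hubs. Among hub pairs, those with a promoter partner spanned 220 kb in the median with 19 contacts, those with another accessible partner 250 kb with 18, and those with no accessible region 310 kb with 14.

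Ebf1-bound regions were taken from deposited lists of 1172 regions, which hold only sites near genes the study called higher in Wt, so a partner that is not listed may still be bound. An Ebf1-bound region lay on 3.24% of the hubs' partner bins (83 of 2566; 2.62% to 3.99%), against 2.91% for other contacted genes (1130 of 38903; 2.74% to 3.08%). The intervals overlap, so no difference per partner was detectable. Beyond 800 kb the share was 6.16% in hubs (13 of 211; 3.64% to 10.3%) and 2.97% in other contacted genes (33 of 1112; 2.12% to 4.14%), and these intervals overlap. Of the 13 pairs, 7 came from Myc, Pvt1 and St8sia4. Among partner bins with an accessible region and no promoter, 7.65% (6.12% to 9.53%) held an Ebf1-bound region in hubs and 5.40% (5.06% to 5.77%) in other contacted genes. These intervals do not overlap, but they are too narrow, since some hubs met the same Ebf1-bound regions. Hubs also lay more often near the regions the study selected, and this share was not split by that, so no difference is read from it.

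Per gene, 37 of 100 hubs had at least 1 Ebf1-bound partner (28.2% to 46.8%), against 905 of 5889 other contacted genes, or 15.4% (14.5% to 16.3%), with 15.7% of all contacted genes as the background. Genes with 15 to 22 interactions reached 30.3% (26.3% to 34.8%), an interval that overlaps that of the hubs. The share climbed with the number of interactions, from 4.28% of genes with 1 to 2 over 9.96% with 3 to 5, 16.9% with 6 to 9, 24.6% with 10 to 14 and 30.6% with 15 to 21 to 35.5% with 22 to 73. The number of partners and having at least 1 such partner are not independent measures. Of the hubs, 21 were near regions the study had selected, and 17 of these had an Ebf1-bound partner, against 20 of the other 79. Among other contacted genes the numbers were 284 of 673 and 621 of 5216.

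**Figure D4:**
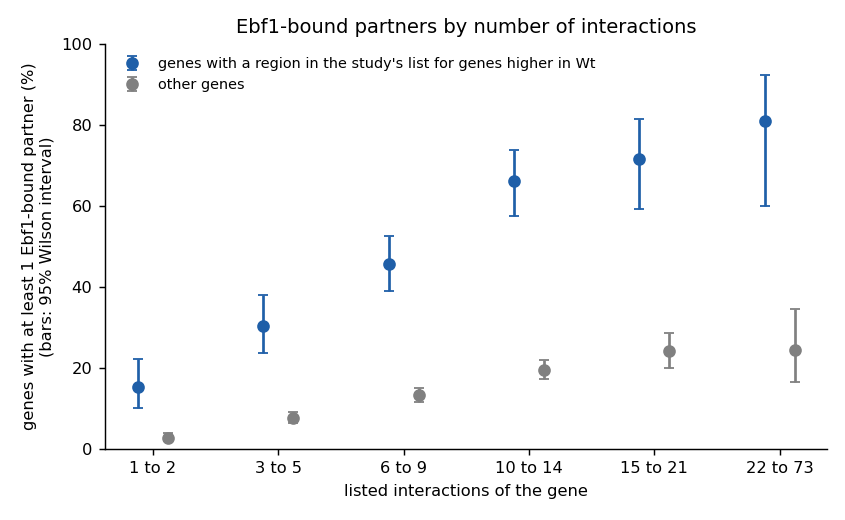
Share of genes in percent with at least 1 Ebf1-bound partner bin (vertical axis) by the number of listed interactions (horizontal axis), for genes with a region in the study's lists (blue) and all other contacted genes (grey); bars are 95% Wilson intervals. Both sets climb with the number of interactions, the blue to 81.0% and the grey to 24.4% at 22 to 73 interactions.

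Vegfa, which encodes a vascular growth factor, and Xpo5, the exporter of microRNA precursors, had the most Ebf1-bound partners, 6 each, and share part of them. Foxo1 had 5. Jun, Lef1, Pvt1, Prkce, Zfp36l1 and Lipe, the hormone-sensitive lipase, had 4 each. Myc had 3, at 835 kb with 36 contacts (25.2 to 49.8), at 1635 kb with 30 (20.2 to 42.8) and at 1650 kb with 21 (13.0 to 32.1), and Pvt1 reached the same 3 regions. Foxo1 had its Ebf1-bound partners at 175 kb with 39 contacts (27.7 to 53.3), at 190 kb with 31, at 370 kb with 21, at 500 kb with 36 and at 575 kb with 36. Bcl6 had 1, at 405 kb with 36 contacts, and Cited2, Klf6 and Runx1 had 0. The first places of the ranking were therefore held by genes with and without such partners.

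Ebf1 itself met an Ebf1-bound region in its own intron (chr11:44892789-44893655) at 275 kb with 44 contacts (32.0 to 59.1), and another at 1255 kb with 13. Ptger4 met Ebf1-bound regions at 20 kb with 78 contacts (61.7 to 97.4), at 135 kb with 34 and at 205 kb with 33. Prkce met them at 40 kb with 84 contacts (67.0 to 104.0) and at 185 kb with 55 (41.4 to 71.6), and Cd53, a tetraspanin of leukocytes, at 90 kb with 83 (66.1 to 102.9). Over all hubs, the median contact count was 20 (16 to 25) with an Ebf1-bound partner and 16 (15 to 16) without, at median spans of 275 kb and 280 kb. The 2 intervals touch at 16 contacts.

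The hubs met 78 of the 1172 Ebf1-bound regions, and 649 were met by other genes only. Of the 78, 24 (30.8%; 21.6% to 41.7%) were listed as open in Wt but not in Ebf1-KO, against 19.1% (16.3% to 22.3%) of the 649. A Pax5 peak lay on 60.3% (49.2% to 70.4%) and 55.6% (51.8% to 59.4%). Both pairs of intervals overlap.

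The 78 regions were then followed in the fetal liver progenitors, where values are tags per region, scaled to 10000000 tags per library. BRG1, a chromatin remodeller, was at least 2-fold lower in Ebf1-KO than in Wt at 26 of the 78 regions (33.3%), against 26.96% of the 649 and a background of 32.4% of all 1172. EP300, a histone acetyltransferase, was lower at 34 (43.6%), against 31.0% and a background of 36.9%, and the antibody label of the Wt EP300 sample names PolII with a question mark. PolII was lower at 43 (55.1%), against 49.5% and a background of 53.0%. All 3 were lower at 20 of the 78 regions, but the matching share of all 1172 was not computed, so nothing is read from this count. The other direction was rarer, with 10 regions higher for BRG1 (background 9.98%), 10 for EP300 (11.0%) and 3 for PolII (3.50%). Shares near the background mean that the hubs' partners did as the listed Ebf1-bound regions did in general, and regions chosen for higher genes in Wt carry no independent evidence of direction.

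Partners of Foxo1 and Lef1 were among those with the largest differences. The Foxo1 partner chr3:52443632-52444742 had 6.92 BRG1 tags in Ebf1-KO and 40.1 in Wt, 8.93 EP300 tags in Ebf1-KO and 96.6 in Wt, and 5.47 PolII tags in Ebf1-KO and 123.7 in Wt. At chr3:52638682-52639315, listed as closed in Ebf1-KO, BRG1 was 3.15 in Ebf1-KO and 51.8 in Wt, EP300 was listed at 0.0 in Ebf1-KO and at 69.9 in Wt, and PolII was 3.42 and 74.5. The Lef1 partner chr3:131054138-131055139, 55 kb upstream, had 3.36 BRG1 tags in Ebf1-KO and 28.2 in Wt, 2.04 and 65.0 EP300 tags, and 2.74 and 131.9 PolII tags. In each of these regions Wt was higher for every factor measured, while the Lef1 partner at 1040 kb (chr3:130072795-130073762) had 19.9 BRG1 tags in Ebf1-KO and 9.65 in Wt.

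At Myc, the 2 far Ebf1-bound partners were listed as closed in Ebf1-KO and also had less of all 3 factors there. At chr15:63619865-63620839, BRG1 was 7.97 in Ebf1-KO and 17.03 in Wt, EP300 2.19 and 19.2, and PolII 5.13 and 18.3. At chr15:63636304-63637505, BRG1 was 6.92 in Ebf1-KO and 17.2 in Wt, EP300 6.74 and 22.4, and PolII 7.87 and 23.02. The partner at 835 kb (chr15:62823735-62825317) was open in both, with BRG1 at 34.4 in Ebf1-KO and 20.8 in Wt, EP300 at 39.8 and 22.2, and PolII at 44.5 and 62.8. The 6 Vegfa partners were mixed, with BRG1 higher in Ebf1-KO at 3 and lower at 3, EP300 higher at 5 and lower at 1, and PolII higher at 2 and lower at 4. Among them, chr17:46086232-46087171 was higher in Ebf1-KO for BRG1, 59.4 against 16.7 in Wt, and for EP300, 71.3 against 21.2 in Wt, while chr17:46074548-46075608 had PolII at 7.18 in Ebf1-KO and 80.4 in Wt. The intronic partner of Ebf1 had EP300 at 13.0 in Ebf1-KO and 46.2 in Wt, and PolII at 10.6 and 41.0. Values were thus higher in Ebf1-KO at some of these regions and lower at others.

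In Ebf1-KO cells with the Ebf1ER vector, median ATAC-seq signal over the 78 regions was 7.09, 8.64, 10.5 and 13.5 tags at 0, 6, 24 and 72 h of 4OHT. At 72 h, 16 regions (20.5%) were at least 2-fold above 0 h and 1 was below, against a background of 18.2% higher and 0.597% lower. The 24 regions closed in Ebf1-KO had low medians of 2.96, 4.32, 4.78 and 4.90 tags at these times, and 8 were at least 2-fold higher at 72 h. The 54 regions open in both genotypes had medians of 13.6, 16.9, 22.8 and 21.5 tags, with 8 higher. The matching shares of all listed Ebf1-bound regions in these 2 classes were not computed, so nothing is read from the split.

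Single partners differed more. The Foxo1 partner at 175 kb had 13.7, 17.9, 24.9 and 44.7 tags at 0, 6, 24 and 72 h, and its partner at 370 kb had 2.96, 5.47, 9.29 and 10.7. The Lef1 partner at 55 kb had 5.07, 5.47, 10.7 and 15.9 tags. A partner of Prkce in its own intron (chr17:86209255-86210255) had 12.1 tags at 0 h, 40.9 at 6 h, 56.5 at 24 h and 44.9 at 72 h, so its largest step came by 6 h. A Gadd45g partner at 80 kb, closed in Ebf1-KO, had 5.07, 11.8, 18.9 and 19.3 tags. Of the 2 far Myc partners, the one at 1635 kb had 3.81, 4.90, 1.37 and 4.61 tags, and the one at 1650 kb had 2.33, 5.76, 5.74 and 3.17. Neither was 2-fold higher at 72 h, while the one at 1650 kb was higher at 6 and 24 h than at 0 or 72 h. Both had few tags and no replicate error, so no time pattern is read from these values.

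At the promoters themselves, peaks of Fli1, an Ets factor, were counted. A Wt Fli1 peak overlapped an accessible promoter of 53 hubs (43.3% to 62.5%), against 69.7% of other contacted genes (68.5% to 70.8%) and 70.8% of genes with 15 to 22 interactions (66.4% to 74.8%), with a background of 69.4% of all contacted genes. With the higher-scoring peaks alone it was 48 hubs (38.5% to 57.7%), against 56.7% of other contacted genes, which lies within the hubs' interval. The peaks were called in fetal liver progenitors and not in the line. All 9 hubs with the Ets letters in their window had such a peak, Lsg1 and Ppil1 among them, against 34 of 63 hubs without, and in other contacted genes the numbers were 391 of 420 and 2770 of 3706. Ikzf1 peaks lay on 22 hubs (15% to 31.1%), against 20.2% of other contacted genes (19.2% to 21.2%), with a background of 20.2%. An Ebf1-bound region lay on the promoter of 3 hubs, Man1a, Prkce and Cd37, against 2.72% of other contacted genes and a background of 2.72%. On partner bins, Fli1 peaks lay on 28.02% in hubs (26.3% to 29.8%) and 40.6% in other contacted genes (40.2% to 41.1%), and on 51.4% and 54.0% of the accessible partners without a promoter.

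Chromatin marks in the progenitors were tabulated for 21 promoter regions of 17 hubs, again only those near genes the study called higher in Wt. Median log2 ratios of Ebf1-KO over Wt, with 1 added to each value, were 0.44 for H3K4me3, 0.82 for H3K4me2, -0.38 for H3K27Ac, -0.47 for PolII and 0.08 for H3K27me3 at hub promoters. At 501 promoter regions of other contacted genes they were 0.42, 0.43, -0.52, -0.45 and 0.11 for the same 5 readouts. H3K4me3, which chose the contacts, was at least 2-fold lower in Ebf1-KO at 3 hub regions and higher at 3 (background 25.3% lower and 15.5% higher). PolII was lower at 7 and higher at 1 (background 40.0% and 7.04%), and H3K27Ac was lower at 3 and higher at 0 (37.3% and 1.14%). H3K4me2 was lower at 0 and higher at 7 (30.5% and 7.44%), and H3K27me3, the mark of Polycomb silencing, was lower at 1 and higher at 7 (4.70% and 16.6%). The backgrounds cover all 3764 regions of the table, promoters or not. Among the 501 promoter regions of other contacted genes, 15.4% were lower and 13.8% higher for H3K4me3, 31.9% and 3.59% for PolII, 26.95% and 0.200% for H3K27Ac, 12.97% and 9.38% for H3K4me2, and 1.40% and 23.2% for H3K27me3. The matching hub shares were 14.3% and 14.3%, 33.3% and 4.76%, 14.3% and 0.0%, 0.0% and 33.3%, and 4.76% and 33.3%.

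Promoters of Lef1, Epha5 and Thrb carried more H3K27me3 in Ebf1-KO than in Wt. At the Lef1 promoter chr3:131111958-131112852, H3K27me3 was 31.4 tags in Ebf1-KO and 1.29 in Wt, H3K4me3 was 31.1 and 190.1, PolII was 0.68 and 17.6, and H3K27Ac was 2.59 and 16.9. Epha5, a receptor of ephrins, had H3K27me3 at 27.04 in Ebf1-KO and 9.45 in Wt, H3K4me3 at 22.7 and 90.6, and PolII at 1.71 and 24.2. Thrb, a receptor of thyroid hormone, had H3K27me3 at 26.7 in Ebf1-KO and 1.43 in Wt and PolII at 7.18 and 33.6, while its H3K4me3 was 156.2 and 271.3, less than 2-fold apart. H3K27me3 passed 5 tags at 5 regions in Ebf1-KO and at 1 in Wt. H3K27me3 at least 2-fold higher together with H3K4me3 and PolII at least 2-fold lower was seen at 3 regions, those of Epha5 and both of Lef1. Neither of these counts was made for promoters of other genes, so nothing about hubs is read from them. Bcl11a also had more H3K27me3 (5.05 in Ebf1-KO and 0.29 in Wt at 1 of its regions) with H3K4me3 at 88.5 and 76.3.

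**Figure D5:**
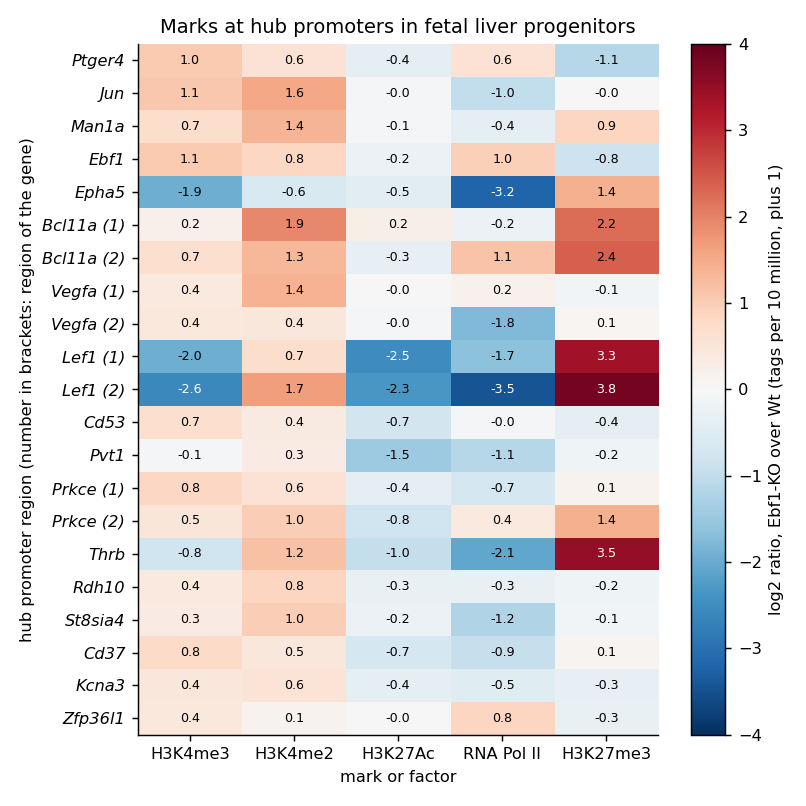
Log2 ratio of Ebf1-KO over Wt (colour and printed value; scaled tags, with 1 added) for 5 marks and factors (columns) at 21 promoter regions of 17 hubs (lines, in order of rank). Both Lef1 regions, Epha5 and Thrb are red for H3K27me3 and blue for PolII, while Ptger4, Jun and Ebf1 have more H3K4me3 in Ebf1-KO.

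H3K4me3 was higher in Ebf1-KO than in Wt at 16 of the 21 hub promoter regions, a count not made for other promoters. The median log2 ratio was 0.44 at hub promoters and 0.42 at promoters of other contacted genes, so this direction was not particular to hubs. Jun had H3K4me3 at 206.2 in Ebf1-KO and 96.4 in Wt, Ptger4 at 182.8 and 87.8, and Ebf1 at 126.1 and 59.9. PolII at Jun was 16.8 in Ebf1-KO and 34.3 in Wt. At the Ebf1 promoter PolII was 19.8 in Ebf1-KO and 9.75 in Wt; the region chr11:44616860-44617600 need not lie in the deleted part of the gene, so it does not check the knockout. H3K4me3 columns rest on pools of unequal depth, 196071042 tags in Ebf1-KO and 76632191 in Wt.

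Without E2A, accessibility was lower at most of the tabulated hub promoters, which were again only those near genes the study called higher in Wt. The median log2 ratio was -0.80 at hub promoters, -0.81 at promoters of other contacted genes and -0.76 over all regions. Of 28 promoter regions of 19 hubs, 23 were lower in E2A-KO than in Wt, 9 of them at least 2-fold (32.1%), against 34.7% of 550 regions of other contacted genes and a background of 37.9% over all 4983 regions of the table. None was 2-fold higher, against a background of 0.983%. St8sia4, which adds polysialic acid, had 37.7 tags in E2A-KO and 109.9 in Wt, Cd37 had 39.3 and 100.9, and the main Lef1 promoter had 13.5 and 45.7. The strongest Bcl11a region was slightly higher, with 46.2 in E2A-KO and 38.9 in Wt. The medians were 24.3 tags in E2A-KO and 43.2 in Wt at hub promoters, and 18.4 and 36.9 at those of other contacted genes.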

How the data were processed

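Interactions were listed by the authors from both PLAC-seq samples together, giving for each pair of 5 kb bins its contact count of read pairs and a q-value after bias correction, at most 0.05, as deposited. The submitters' processing notes name HiC-Pro 2.11.1, Bowtie2 2.3.5, SAMtools 1.9, deepTools 3.3.1, HOMER 4.10 and Trim Galore 0.6.4, and, with no version, edgeR, FastQC, MACS2 and Picard, beside the builds mm10 and GRCm38.p5. The signal in the region tables counts tags in each region, scaled by the authors to 10000000 tags per library, per the file headers. The Fli1 and Ikzf1 peak score is the authors' own, as deposited, and was used only to halve the lists. A further 2 ATAC-seq signal columns, of Ebf1-KO and Pax5-KO, stood beside those of E2A-KO and Wt and were not used.

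Promoter regions were the accessible regions annotated promoter-TSS; 670 without a gene name were matched by accession. An anchor held a region that overlapped it by 1 bp. Span is the distance between bin midpoints. Shares have Wilson intervals, medians order-statistic intervals and contact counts exact Poisson intervals. Fold calls use log2 of the value plus 1. Counting was tested on simulated data, where 200 of 200 genes with planted interactions were counted exactly. Each simulated gene had 1 promoter region within 1 unshared bin and no partner on a promoter, so genes with more regions or shared bins were not tested. Python 3.11.15, pandas 2.3.3, NumPy 2.4.6 and SciPy 1.17.1 were used, with matplotlib 3.10.9 for figures. Coverage, GC and mappability of the bins, planned as a check, were not used here.

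The hubs, the gene lists and the rules were chosen with earlier results of these data known. Named are the first 20 hubs, the 3 hubs of lowest rank and the next 3 genes, up to 4 hubs and 2 other genes per list, the 5 hubs of largest and of smallest median span, the 5 of largest median contact count, the 8 with most Ebf1-bound partners and hubs that share a bin with these. Hubs named for their marks, accessibility or single partners (Epha5, Thrb, St8sia4, Gadd45g, Cd53, Extl2, Ppil1) and the genes Rag1, Rag2, Pax5 and Vpreb1 were chosen after their values were seen. Sequences were matched by gene to RefSeq windows of GRCm38.p6. Some results that the rule would name are not reported here.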

Additional observations from a re-analysis of the deposited data

How the results depend on the processing

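No paired analysis was possible because both PLAC-seq samples are in 1 list with no column per sample, so leaving out a replicate and a replicate block were not run either. Of 82 alternatives, 48 kept the value reported within its counting error or within 1.5 times for counts, 31 moved and 3 reversed the order of hubs and other genes; the cause was not tested. Merged extents as anchors, 1 interaction per merged cluster, named genes only, the alternatives on interactions per hub and the other pseudocounts were chosen after seeing the data. Median span was 265 kb at q of at most 0.01, 340 kb for 50 hubs, 260 kb for 200 hubs, 295 kb with promoters within 1000 bp of a start, 185 kb when ranked by summed contact count, 330 kb for spans of at least 50 kb and 260 kb with merged extents, above other genes throughout. Median contacts in hubs were 19 at q of at most 0.01 (21 in other genes), 17 with merged extents (18) and 15 with 1 interaction per merged cluster (17). For spans of at least 50 kb they were 15 in hubs and 15 in other genes, so the difference was lost. The order reversed when ranked by summed contact count (21 in hubs, 17 in other genes). The Ebf1-bound share reversed for 50 hubs (2.71% in hubs, 2.93% in other genes) and with 1 interaction per merged cluster (2.70% and 2.94%), and was 4.33% within 5 kb of the partner bin. Hubs with an Ebf1-bound partner were 16 of 50 and 71 of 200. The promoter partner share was 11.8% at q of at most 0.01, 5.89% for 50 hubs, 12.2% for 200 hubs, 12.5% with promoters within 1000 bp, 15.5% by summed contact count, 7.80% for spans of at least 50 kb, 14.5% with merged extents and 11.5% with 1 interaction per merged cluster. Interactions per hub were 18 at q of at most 0.01, 28 for 50 hubs, 22 for 200 hubs, 20.5 by summed contact count, 23 for spans of at least 50 kb, 27.5 with merged extents and 22 with 1 interaction per merged cluster. Ikzf1 peaks of the higher scores lay on 13 hub promoters, and with a pseudocount of 3, 5 hub promoters were 2-fold lower in E2A-KO. Of the 100 hubs, 75 remained at q of at most 0.01, 77 with promoters within 1000 bp, 84 for spans of at least 50 kb, 63 with merged extents, 80 with 1 interaction per merged cluster and 47 by summed contact count.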
